A study of Arabidopsis thaliana with 6 samples.

Results

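The 10 DNA damage signalling genes of Arabidopsis thaliana examined here were ATM (AT3G48190), ATR (AT5G40820), SOG1 (AT1G25580), BRCA1 (AT4G21070), BARD1 (AT1G04020), RAD50 (AT2G31970), NBS1 (AT3G02680), PARP1 (AT2G31320), PARP2 (AT4G02390) and WEE1 (AT1G02970). They were taken by locus identifier from the 27655 genes of the deposited count tables, and all 10 were among the 18422 genes kept for testing. The measurements are RNA sequencing counts of cells squeezed from anthers of stages 4 to 7 and collected as male meiocytes. One group is the strain Ler (Landsberg erecta), and the other carries knu-2, a mutant form of the zinc finger gene KNUCKLES (KNU). Each has 3 libraries, of 18070435 to 27995200 counts. The labels give no treatment, plant age or background strain for knu-2. Levels of 1 gene in different libraries are given as CPM, which are counts relative to the library's total after TMM scaling. Levels of different genes are compared as TPM, which also divide by gene length.

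In plants as in animals, the kinase ATM responds to DNA double-strand breaks and the kinase ATR to single-stranded DNA at stalled replication forks. The MRN complex of MRE11, RAD50 and NBS1 binds broken ends and activates ATM, and in meiosis it also processes the breaks that SPO11 makes to start recombination. SOG1, a NAC transcription factor of plants that ATM phosphorylates, switches on repair and cell cycle arrest genes. BRCA1 and BARD1 act as a pair in homologous repair, and the poly(ADP-ribose) polymerases PARP1 and PARP2 mark broken DNA with ADP-ribose chains. WEE1 is a kinase of the cell cycle that phosphorylates the cyclin-dependent kinase CDKA;1.

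KNU, the gene that the labels name as mutant, fell from 76.8 ± 9.69 CPM in Ler to 8.63 ± 4.68 CPM (SD, n = 3 per genotype; adjusted p = 0.000128 by edgeR). Its log2 fold change was -3.16, and the markers of meiocytes given next had a median of -3.09. The fall of KNU was thus no larger than is common among these markers, and it does not by itself check the labels. All 11 markers of meiocytes, the cells the labels name, were detected in both genotypes. Summed, they reached 4242 to 5143 CPM in the Ler libraries and 1114 to 1958 CPM in those of knu-2, with the highest knu-2 value in replicate 1. The summed level of 12 tapetum markers, of which MS1, CYP703A2 and MS2 had no count in any library, was 301 to 354 CPM in the Ler libraries, against 1202 to 1698 CPM in the mutant. The summed level of 9 photosynthesis genes overlapped between the genotypes, from 1504 to 2147 CPM in the Ler libraries and from 1287 to 2875 CPM in the mutant, and RBCS1A, LHCB1.3 and LHCA1 had the highest means over all 6 libraries. The part of the mix of cells in the results below was not tested, and in such bulk samples fewer cells of a type and less RNA per cell cannot be told apart.

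The DNA before 4 of the genes is shown first, because the level of NBS1 relative to MRE11 and that of PARP1 relative to PARP2 lay apart between the genotypes. For each, the 250 bases that end just before the annotated start in the RefSeq annotation of TAIR10.1 are given on the coding strand, 5′ to 3′. Capitals mark matches to 2 motifs searched on both strands, namely the SOG1 motif (CTT and AAG with any 7 bases between them) and the core AACGG of sites for MYB3R cell cycle factors, which reads CCGTT on the other strand. NBS1 held neither.
NBS1 (chr3:576058-576307, plus strand): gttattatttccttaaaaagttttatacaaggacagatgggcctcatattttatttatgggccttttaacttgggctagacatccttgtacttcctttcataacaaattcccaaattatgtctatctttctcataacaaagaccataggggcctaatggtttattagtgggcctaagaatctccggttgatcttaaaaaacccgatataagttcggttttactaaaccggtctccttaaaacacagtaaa
MRE11 (chr5:22031788-22032037, plus strand): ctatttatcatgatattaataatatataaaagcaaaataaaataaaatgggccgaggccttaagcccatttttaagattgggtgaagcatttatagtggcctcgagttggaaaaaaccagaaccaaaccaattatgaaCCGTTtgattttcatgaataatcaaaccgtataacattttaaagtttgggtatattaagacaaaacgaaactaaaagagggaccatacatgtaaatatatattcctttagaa
PARP1 (chr2:13359751-13360000, minus strand): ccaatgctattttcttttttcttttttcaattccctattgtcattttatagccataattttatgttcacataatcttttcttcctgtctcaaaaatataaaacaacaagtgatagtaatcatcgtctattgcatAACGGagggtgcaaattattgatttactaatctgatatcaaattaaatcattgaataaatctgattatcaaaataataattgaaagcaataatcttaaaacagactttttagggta
PARP2 (chr4:1049516-1049765, plus strand): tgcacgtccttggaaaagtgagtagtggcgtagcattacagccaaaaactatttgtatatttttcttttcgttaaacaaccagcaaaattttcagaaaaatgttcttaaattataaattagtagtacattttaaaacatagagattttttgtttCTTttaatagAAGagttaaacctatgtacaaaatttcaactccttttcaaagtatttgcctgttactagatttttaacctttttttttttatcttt

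PARP2 was the 1 signalling gene of the 10 with the SOG1 motif in this window, against 9.71% of all 27443 genes with such a window. Of 11 genes listed for their induction by DNA damage, 5 had it. Matches are shown with their flanks for genes that fell in knu-2 (PARP2 and PARG2), for one that rose (NAC044) and for one that was not called (SMR4). These are examples and not the balance of falls and rises among genes with the motif. Others with it include HUS1, RAD54 and TEB, which fell, and COM1, which was not called. Capitals mark the fixed bases of the motif.
PARP2 (chr4:1049658-1049694, plus strand): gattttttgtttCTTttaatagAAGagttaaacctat
PARG2 (chr2:13549572-13549607, minus strand): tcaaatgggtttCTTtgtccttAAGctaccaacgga
NAC044 (chr3:228998-229034, plus strand): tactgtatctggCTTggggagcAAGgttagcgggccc
SMR4 (chr5:442249-442285, minus strand): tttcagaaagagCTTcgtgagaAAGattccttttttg

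The AACGG core was present before ATM, SOG1, PARP1 and WEE1, which is 4 of the 10 genes, against 20.6% of all promoters. None of the 10 windows held an E2F site (TTTCCCGC, TTTCGCGC, TTTGCCGC or TTTGGCGC), and 1.41% of all promoters did. A match is a description of the letters and not a bound site. The 10 genes lie on all 5 nuclear chromosomes, with exonic lengths of 1897 bp for WEE1 to 9734 bp for ATM. ATM spans 27265 bp (chr3:17801289-17828553) in 77 exonic blocks and ATR 11171 bp (chr5:16342728-16353898) in 15. ATR overlaps AT5G40810 on the other strand by 200 bp and RAD50 overlaps CYS2 by 12 bp, and reads of such pairs cannot be told apart where counting ignores strand, a setting that no label or header names. Among the genes named here, overlaps of 1 to 440 bp, on the same or the other strand, also touch HUS1, HTA3 and the BRCA2 copy BRCA2B. They touch KU70, XRCC1, GMI1, TSO2, ETG1, ASY1, SYN1, TKPR1, AMS and LHCB1.3 as well.

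Of the 10 genes, 5 fell (ATR, WEE1, RAD50, PARP2 and ATM), 1 rose (NBS1) and 4 were not called (BRCA1, BARD1, PARP1 and SOG1), by edgeR's quasi-likelihood test at a Benjamini-Hochberg adjusted p under 0.05 over all genes tested. Over all genes tested 48.1% were called, with 24.4% lower and 23.6% higher. The median log2 fold change of the 10 genes was -1.10, and that of all genes tested was 0.10. In 6 of the 10 genes the genotypes did not overlap, as was the case in 59.1% of all genes tested. Summed over the 10 genes, the level was 814 to 954 CPM in the Ler libraries and 361 to 544 CPM in the mutant, which is 0.0736 to 0.0871% and 0.0437 to 0.0586% of the counts. With libraries scaled by their totals alone, all fold changes shifted upward, with a median shift of 0.32 (log2), and 63.7% of all calls were higher, against 49.2% with TMM. Under that scaling the same 5 signalling genes fell, and PARP1 rose with NBS1.

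**Figure D1:**
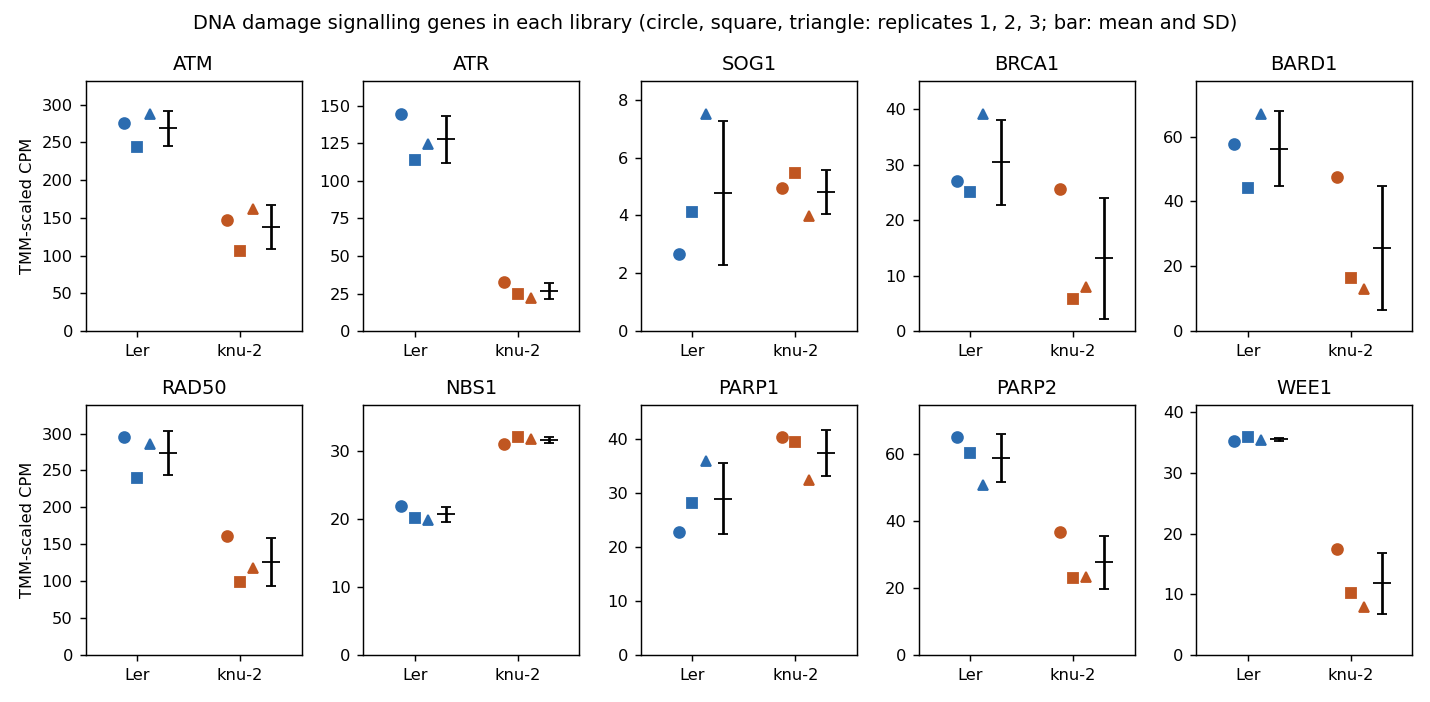
TMM-scaled CPM (y axis, from 0) of each gene in the 3 Ler and 3 knu-2 libraries, with the mean and SD beside them. ATR, ATM, RAD50, PARP2 and WEE1 are lower in every knu-2 library, NBS1 is higher in every one, and knu-2 replicate 1 of BRCA1 (25.6) and BARD1 (47.6) lies within the Ler range.

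Both kinases at the head of the pathway fell, ATR by more than ATM in the fitted values. ATR was at 145, 113 and 124 CPM in Ler replicates 1 to 3 and at 32.5, 24.7 and 22.4 CPM in knu-2 replicates 1 to 3. Every knu-2 library thus lay below the lowest Ler library. The fall was 4.81-fold (log2 fold change -2.27, SE 0.19, adjusted p = 1.21e-05 by edgeR). ATM was at 276, 243 and 288 CPM in Ler and at 147, 106 and 162 CPM in knu-2, again with no overlap. It fell 1.95-fold (log2 fold change -0.96, SE 0.19, adjusted p = 0.00139 by edgeR). The ratio of ATM to ATR in TPM, which does not depend on the scaling of libraries, was 1.82, 2.05 and 2.21 in Ler and 4.32, 4.10 and 6.90 in knu-2. On the log2 scale the ratio was 1.296 higher in knu-2 (exact two-sided permutation p = 0.1, the smallest that 3 against 3 libraries can give; 0.15 after adjustment over 6 pairs of genes).

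SUV2 (AT5G45610), the Arabidopsis counterpart of ATRIP, which binds ATR, fell with ATR, from 76.3 ± 9.39 to 24.2 ± 8.08 CPM (SD, n = 3 each; adjusted p = 0.000187 by edgeR). The checkpoint clamp that works beside ATR is made of RAD9, HUS1 and RAD1 and is loaded by RAD17. RAD17, which overlaps PAD2 on the other strand by 53 bp, fell from 73.4 to 24.5 CPM (adjusted p = 3.73e-05). AT4G17760, listed as RAD1 and annotated as a PCNA domain protein, fell from 59.1 to 14.8 CPM (adjusted p = 0.000536). In the whole list of 10 sensor and clamp partners, 9 fell and 1 was not called, and the median log2 fold change was -1.62. The 1 not called was COM1, which works with MRN on meiotic breaks and was named after its values were seen. Its levels were 37.6 to 45.2 CPM in Ler and 24.2, 2.56 and 8.39 CPM in knu-2 replicates 1 to 3.

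SOG1, the transcription factor below ATM, had the lowest level of the 10 genes and did not pass the test. It was at 2.68, 4.11 and 7.51 CPM in Ler and at 4.95, 5.48 and 3.97 CPM in knu-2, from 61 to 136 counts per library. All 3 knu-2 libraries lay within the Ler range. The log2 fold change was 0.013 with a 95% interval of -1.0018 to 1.03 (adjusted p = 0.986 by edgeR), so that changes of up to about 1 on the log2 scale in either direction were within the error. Genes that plants induce after DNA damage, many of them through SOG1, moved in both directions. Of 11 listed, 8 were measured, of which 3 rose, 2 fell and the other 3 did not pass the test. Their median log2 fold change was 0.32. Over all genes tested, 23.6% were called higher and 24.4% lower. GMI1, a protein with an SMC hinge used in somatic recombination, was at 26.95 to 32.3 CPM in Ler and 107 to 149.6 CPM in knu-2 (4.03-fold, adjusted p = 1.58e-05). NAC044, a NAC factor of the damage-induced G2 arrest, rose from 6.68 ± 1.31 to 18.5 ± 2.59 CPM (adjusted p = 0.00101), and the CDK inhibitor gene KRP6 was 7.67-fold higher (adjusted p = 1.45e-05). TSO2, a ribonucleotide reductase gene, was among those that fell (1.61-fold, adjusted p = 0.0209). The arrest genes SMR5, SMR7 and NAC085 had few or no counts and were not tested. SMR5 had no count in any library, which allows up to 0.119 to 0.166 CPM by library at 3 counts (counting error only). SMR5 overlaps ftsh10 on the other strand by 266 bp, and ftsh10 had 1439 to 4858 counts, so that with the strand setting unknown the 0 cannot be read as a level. SMR7 and NAC085 had at most 12 and 5 counts.

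The 3 subunits of the MRN complex did not move together. RAD50, the SMC-like subunit that bridges DNA ends, was at 295, 239.5 and 286 CPM in Ler and at 161, 98.5 and 118 CPM in knu-2. It fell 2.17-fold (log2 fold change -1.12, SE 0.20, adjusted p = 0.000836 by edgeR). The nuclease subunit MRE11 fell with it, from 99.1, 91.01 and 91.8 CPM to 33.4, 39.8 and 33.1 CPM (adjusted p = 5.01e-05). NBS1, the subunit that recruits ATM, was at 21.99, 20.2 and 19.9 CPM in Ler and at 31.2, 32.1 and 31.8 CPM in knu-2. Its libraries were tightly grouped within each genotype and the groups did not overlap. The rise was 1.53-fold (log2 fold change 0.61, SE 0.18, adjusted p = 0.0155 by edgeR), and the call was lost without Ler replicate 2 (adjusted p = 0.0654) or replicate 3 (0.0626).

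The ratio of NBS1 to MRE11 in TPM was 0.309, 0.310 and 0.302 in Ler and 1.303, 1.12 and 1.34 in knu-2, so that the transcript that was the scarcer of the 2 in every Ler library was the more abundant in every knu-2 library. RAD50 over NBS1 went from 5.79, 5.11 and 6.20 to 2.23, 1.33 and 1.602. Both ratios lay apart between the genotypes, by 2.03 and -1.76 on the log2 scale (exact permutation p = 0.1 and adjusted p = 0.15 for each). RAD50 over MRE11 overlapped, at 1.58 to 1.87 in Ler and 1.49 to 2.91 in knu-2 (difference 0.27 on the log2 scale, exact permutation p = 0.5, adjusted p = 0.6). Without knu-2 replicate 1 that difference was 0.04.

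**Figure D2:**
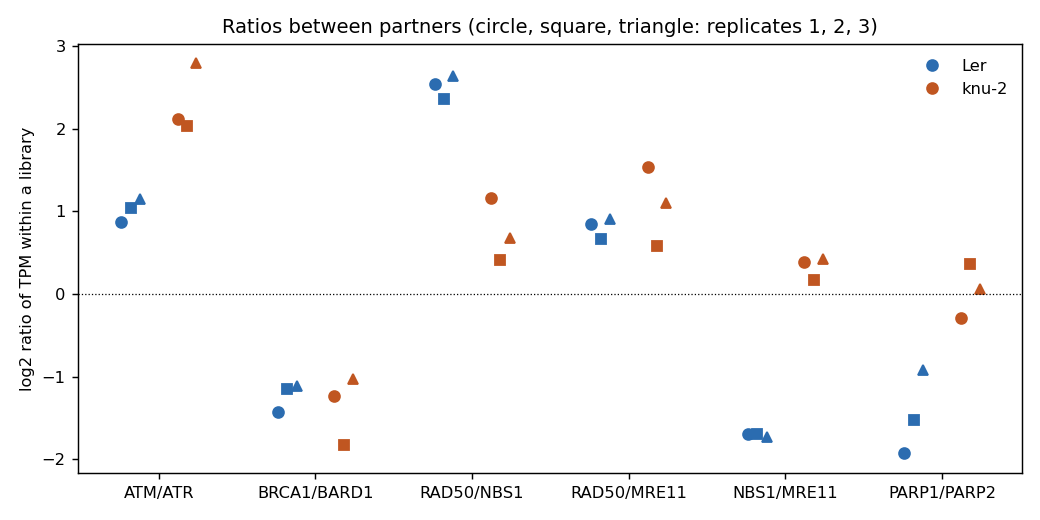
Log2 ratio of TPM between partner genes within each library (y axis), for 6 pairs, with Ler in blue and knu-2 in orange. The genotypes are apart for ATM/ATR, RAD50/NBS1, NBS1/MRE11 and PARP1/PARP2 and overlap for BRCA1/BARD1 and RAD50/MRE11.

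BRCA1 and BARD1, whose RING proteins form a heterodimer, shared an uneven pattern over the knu-2 libraries. BRCA1 was at 27.1, 25.01 and 39.2 CPM in Ler and at 25.6, 5.80 and 7.99 CPM in knu-2. BARD1 was at 57.7, 44.1 and 67.1 CPM in Ler and at 47.6, 16.3 and 12.9 CPM in knu-2. For both genes knu-2 replicate 1 lay within the Ler range and replicates 2 and 3 lay below it. Neither was called with all libraries (log2 fold changes -1.22, SE 0.56, and -1.14, SE 0.51, adjusted p = 0.115 for each by edgeR), and the 95% intervals ran from -2.54 to 0.10 and from -2.38 to 0.10. Without knu-2 replicate 1 both were lower, at -2.16 (adjusted p = 0.000134) and -1.97 (5.44e-05). DESeq2 (adjusted p = 0.00853 and 0.00428) and limma-voom (0.0110 and 0.0191) called both lower with all libraries. The BRCA1 to BARD1 ratio in TPM was 0.372 to 0.462 in Ler and 0.282 to 0.489 in knu-2, with no separation (exact permutation p = 0.8).

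Replicate 1 was the knu-2 library nearest to the Ler mean in 8 of the 10 genes, a share that was not counted over all genes tested. The 8 include SOG1, which was not called. They also include NBS1, whose distances on the log2 scale were close, at 0.631 and 0.621 in the others and 0.590 in replicate 1. In the same library the meiocyte markers summed to 1958 CPM, against 1114 and 1362 CPM in the other two knu-2 libraries, and the tapetum markers to 1202 CPM, against 1698 and 1248 CPM. The part of this library's makeup in the values was not tested. Among 11 homologous repair partners, 5 fell, 1 rose and 5 did not pass the test. Their median log2 fold change was -1.13. RAD54, a DNA translocase of homologous repair, fell 9.21-fold, from 299 ± 27.9 to 32.5 ± 20.9 CPM (SD, n = 3 each; adjusted p = 0.000742 by edgeR). XRCC3, also a homologous repair gene, fell 4.79-fold, and AT4G32700, listed as TEB and annotated as a MUS308-like DNA polymerase, fell 2.19-fold (adjusted p = 6.94e-05 and 0.000688). Without knu-2 replicate 1 the log2 fold change of RAD54 was -3.89, against -3.20 with it. BRCC36A, a gene for a deubiquitinase of BRCA1 complexes and the 1 member that rose, was named after its values were seen (9.20 ± 1.46 to 17.9 ± 1.57 CPM, adjusted p = 0.00743).

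Of the PARP genes, PARP2 fell and PARP1 did not pass the test. PARP2 was at 64.8, 60.2 and 50.7 CPM in Ler and at 36.7, 22.9 and 23.3 CPM in knu-2, with no overlap. It fell 2.12-fold (log2 fold change -1.09, SE 0.22, adjusted p = 0.00172 by edgeR). PARP1 was at 22.8, 28.1 and 35.9 CPM in Ler and at 40.3, 39.4 and 32.4 CPM in knu-2, and knu-2 replicate 3 lay below Ler replicate 3. It was not called (log2 fold change 0.37, 95% interval -0.088 to 0.83, adjusted p = 0.168 by edgeR) except with libraries scaled by their totals alone (adjusted p = 0.0257). The ratio of PARP1 to PARP2 in TPM was 0.263, 0.348 and 0.529 in Ler and 0.820, 1.28 and 1.04 in knu-2, 1.501 higher in knu-2 on the log2 scale (exact permutation p = 0.1, adjusted p = 0.15). The names PARP1 and PARP2 have been used for these genes both ways, and the names here are those of the reference.

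The enzymes that remove ADP-ribose chains fell more than PARP2 in their fitted values, a difference that was not tested. PARG2 fell 8.67-fold, from 20.1, 21.3 and 28.2 CPM to 3.98, 1.96 and 2.11 CPM (adjusted p = 3.75e-05), and PARG1 fell 3.29-fold (adjusted p = 0.000508). Of the 9 measured genes among 10 end joining and poly(ADP-ribose) partners, 5 fell, 1 rose and 3 did not pass the test. Their median log2 fold change was -1.17. KU80, which encodes a subunit of the end-binding KU dimer, fell from 186 ± 6.79 to 50.1 ± 12.7 CPM (SD, n = 3 each; adjusted p = 2.72e-05), and the ligase gene LIG6 fell 2.25-fold (adjusted p = 0.000834). KU70, for the other KU subunit, was at 23.5 to 28.02 CPM in Ler and 26.1 to 51.5 CPM in knu-2 and was not called (adjusted p = 0.0667). XRCC1, a scaffold of single-strand break repair, was the 1 that rose (1.86-fold, adjusted p = 0.00266). Both KU70 and XRCC1 were named after their values were seen.

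WEE1, the kinase at the cell cycle end of the pathway, was at 35.3, 35.8 and 35.4 CPM in Ler and at 17.5, 10.14 and 7.87 CPM in knu-2. The Ler libraries were nearly equal and all knu-2 libraries lay below them. The fall was 3.01-fold (log2 fold change -1.59, SE 0.28, adjusted p = 0.000786 by edgeR). CDKA;1, which WEE1 phosphorylates, fell 3.16-fold, from 309.9, 263 and 259 CPM to 112, 60.3 and 91.8 CPM (adjusted p = 0.000122). In the list of 4 genes for the WEE1 target and replication stress, CDKA;1 fell, the ribonucleotide reductase gene RNR2A rose and 2 were not called. These were RNR1 and the replication factor gene ETG1, with log2 fold changes of 0.030 and 0.29.

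**Figure D3:**
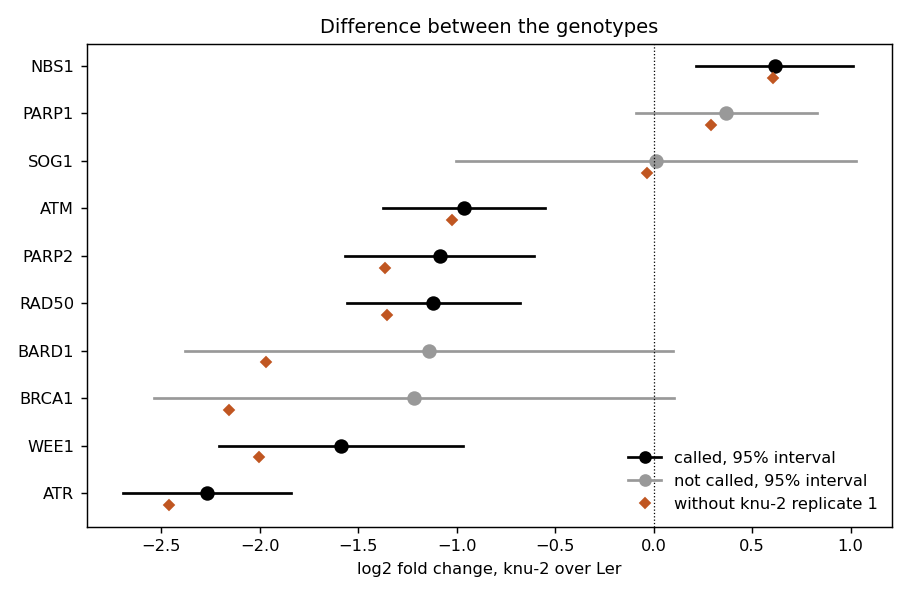
Log2 fold change of each gene between knu-2 and Ler (x axis) with its 95% interval, in black where called and in grey where not, and the value without knu-2 replicate 1 as a diamond. ATR (-2.27) and WEE1 (-1.59) lie lowest and NBS1 (0.61) highest, and the intervals of BRCA1, BARD1, PARP1 and SOG1 cross 0.

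Compared per length, the order of the genes differed between the genotypes. In Ler, RAD50 was the most abundant at 91.6 ± 10.4 TPM (SD, n = 3), followed by ATM at 41.4 ± 4.33 TPM, and both lay apart from their neighbours in the order. PARP2 (34.2 ± 3.14 TPM) and BARD1 (34.1 ± 7.73 TPM) overlapped, as did BARD1 and WEE1 (28.0 ± 0.955 TPM). ATR stood sixth at 20.5 ± 2.23 TPM, apart from WEE1 above it and from NBS1 below it at 16.1 ± 0.484 TPM. BRCA1 (14.6 ± 4.14 TPM) overlapped with NBS1 and with PARP1 (12.7 ± 3.31 TPM), and SOG1 was the lowest at 3.58 ± 1.98 TPM.

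In knu-2, RAD50 was again first, at 48.2 ± 11.1 TPM, and lay apart from the next gene. NBS1 stood second at 28.2 ± 1.80 TPM, in an unbroken run of overlapping neighbours that went on through ATM (24.2 ± 3.91 TPM), PARP1 (18.8 ± 2.84 TPM), PARP2 (18.5 ± 4.98 TPM), BARD1 (17.6 ± 12.9 TPM), WEE1 (10.7 ± 4.44 TPM) and BRCA1 (7.10 ± 5.77 TPM). ATR was ninth at 4.89 ± 0.968 TPM and overlapped with SOG1, the last at 4.11 ± 0.858 TPM. Among all genes tested, ATR moved from the 58.5 to the 21.9 percentile of mean TPM and NBS1 from the 53.0 to the 63.8. RAD50 was 25.6 times as abundant as SOG1 in Ler and 11.7 times in knu-2.

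**Figure D4:**
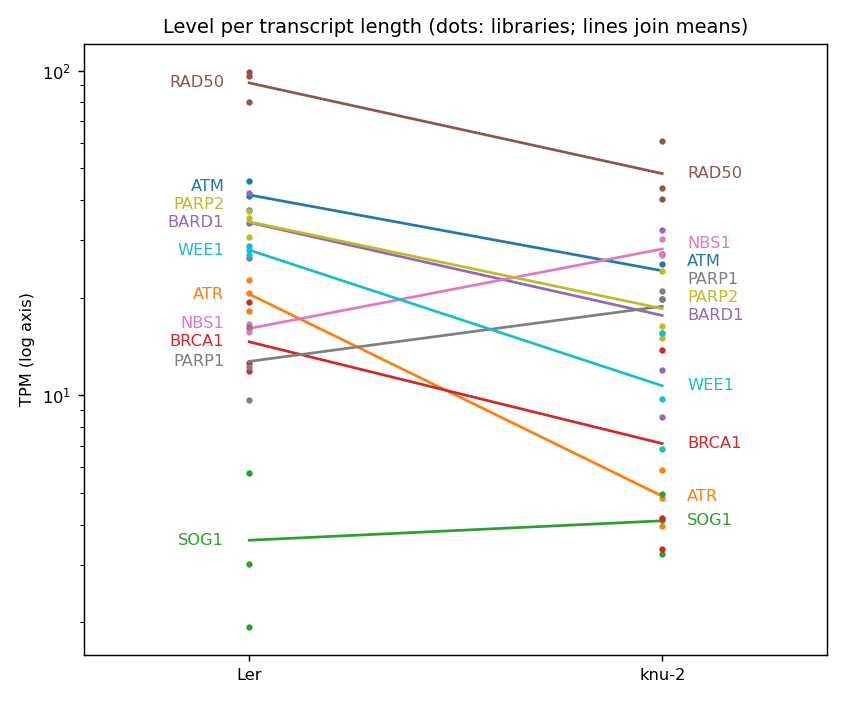
TPM (log axis) of the 10 genes in Ler and knu-2, with a dot for each library and lines between the means. NBS1 rises from 16.1 to 28.2 and passes ATM, while ATR falls from 20.5 to 4.89, next to SOG1.

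Over all 46 partner genes, 42 were measured, of which 22 fell, 6 rose and 14 did not pass the test. Their median was -0.75 on the log2 scale. Of the partner genes measured, 52.4% were called lower and 14.3% higher, against 24.4% and 23.6% of all genes tested. The shares over all genes tested also belong beside the counts of each single list. The same libraries held falls of similar size outside the pathway. Of the 11 meiocyte markers 10 fell and 1 rose (the cohesin gene SYN1, 0.49), at a median of -3.09. The falls included DMC1 (-1.002), ASY1 (-2.37) and SDS (-3.45). Of the 9 tapetum markers measured 7 rose, 1 fell (DYT1) and 1 was not called (LAP6). The rises included TKPR1 (2.10), AMS (2.40) and ACOS5 (2.52). Of 6 transcripts often used as references for plant RNA, 4 fell and 2 did not pass the test. SAND (-1.09) and TIP41L (-0.90) fell by about as much as ATM, RAD50 and PARP2, UBC9 (-0.55) by less and the actin gene ACT2 (-3.06) by more than ATR, in their fitted values. PP2AA3 (-0.17) and YLS8 (-0.45) were the other two. No meiocyte marker was called higher in 7 of 13 alternative settings, so the call of SYN1 was lost in those, and no tapetum marker was called lower in 7 of 13, which ended the call of DYT1. SYN1, DYT1 and LAP6 were named after their values were seen, and the part of this wider shift in the values of the signalling genes was not tested.

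**Figure D5:**
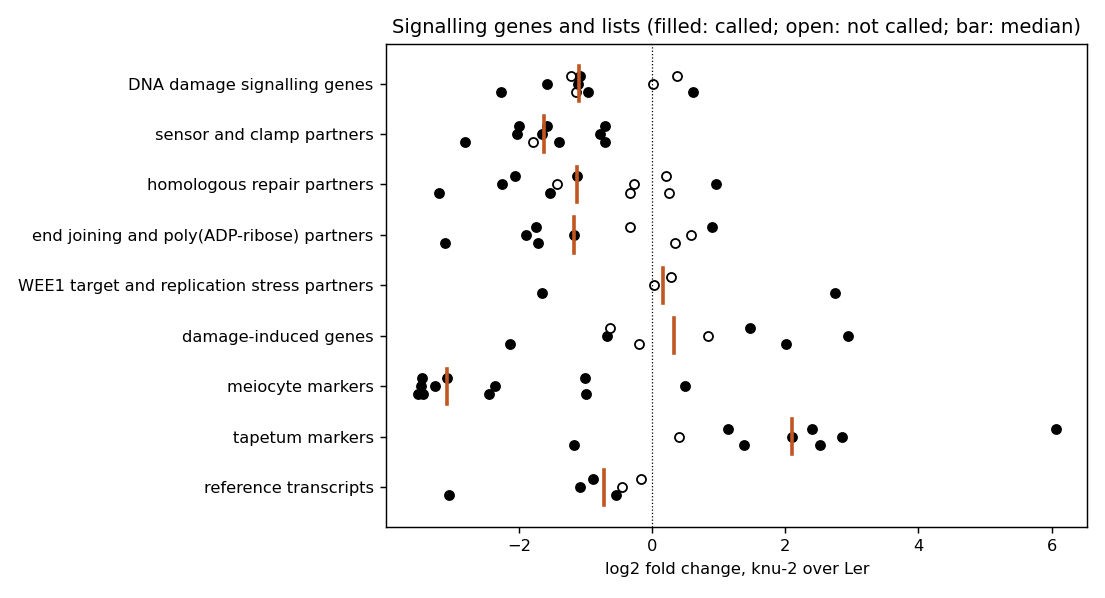
Log2 fold change (x axis) of the signalling genes and of each list, with filled points for called genes, open points for those not called and an orange bar at the median. The sensor and clamp partners lie below 0 throughout, with a median of -1.62, and the damage-induced genes lie on both sides, with a median of 0.32.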

How the data were processed

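The authors deposited, per the file headers, 1 count and 1 gene length for each gene and library. The values are whole numbers with unequal totals and were taken as unnormalized counts. The sources used here do not give the aligner, counter, build or strand setting. Per the labels' protocols, RNA was selected with poly-T beads and cDNA was made with random hexamers. Of the 27445 genes found in the RefSeq annotation of TAIR10.1, 99.4% had exactly its merged exon length, so coordinates and promoters are from that build. Library totals were 18070435 to 27995200 counts. Libraries of a genotype differed by at least 20.3 in chi-square per degree of freedom, so none was a copy. The labels call the libraries biological replicates but not what was separate (plants, pools or days), so p-values measure only the spread between these samples, which may in part be technical.

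Genes were kept with filterByExpr, scaled with TMM and tested with genotype as the only term in edgeR 4.0.16 (robust glmQLFit and glmQLFTest, R 4.3.3), with p-values adjusted over all 18422 genes. The standard error was taken from the test statistic. TPM used the deposited lengths. The 6 ratios were tested by exact two-sided permutation over libraries (scipy 1.17.1). Alternatives were limma-voom (limma 3.58.1), DESeq2 1.42.0, other scalings and filters, a replicate block and each library left out.

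The genes and lists were chosen with earlier results of these data known. The text names the 10 signalling genes, up to 4 genes with the smallest p in each partner list and the 3 with the highest level in each marker list, apart from items not reported here. Lists are described by counts and medians. HTA3 and HTA5 and the BRCA2 copies are close relatives whose reads may be shared.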

Additional observations from a re-analysis of the deposited data

How the results depend on the processing

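Under the 13 alternatives to the fit, ATM, ATR, RAD50, PARP2 and WEE1 were called lower in every one, and the number of signalling genes called lower was 5 or 7. The number called higher was 2 with libraries scaled by their totals alone, and 0 to 1 when libraries were left out in turn; the replicate block gave 1 higher and 5 lower. Of 129 values of single signalling genes, 120 kept their side of the threshold, 7 gained a call and 2, both for NBS1, lost it. SOG1 was not tested at the filter of 5 CPM. The log2 difference of the BRCA1 to BARD1 ratio, -0.13 with all libraries, ranged from -0.30 to 0.098 when libraries were left out. Those of the other pairs kept their direction. No call of a named partner was lost, and ETG1 gained one with library totals alone (adjusted p = 0.0154). Same-numbered libraries had correlations of deviations of -0.121, 0.103 and 0.0523, so the numbers were not taken to pair the libraries. SOG1, with 61 to 136 counts, is the signalling gene most limited by depth.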

Other observations

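The small subunits of ribonucleotide reductase, the enzyme that makes deoxynucleotides and whose supply limits replication and repair, moved in opposite directions in knu-2. RNR2A was at 2.29, 4.35 and 2.15 CPM in Ler and at 16.3, 26.2 and 16.9 CPM in knu-2, 6.71-fold higher (log2 fold change 2.75, SE 0.37, adjusted p = 0.000118 by edgeR). The genotypes did not overlap. RNR2A overlaps AT3G23570 on the other strand by 153 bp. TSO2, for another small subunit, was at 163, 149 and 176 CPM in Ler and at 138, 89.7 and 76.6 CPM in knu-2, 1.61-fold lower (adjusted p = 0.0209). The large subunit gene RNR1, at 124 ± 2.30 CPM in Ler, had a mean of 127 ± 28.5 CPM in the mutant (SD, n = 3 each) and was not called (adjusted p = 0.908).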
